A study of Orbicella faveolata with 18 samples.

Results

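The 40 clones described here are spotted cDNAs of the coral *Montastraea faveolata* (now *Orbicella faveolata*) that carry an annotation as a ribosomal protein. They were taken from the study's list of clones that differed between temperatures, which names 538 clones, by the words ribosomal protein in the annotation and by the presence of a value on 2 or more of the 3 arrays of every one of the 6 conditions. The list held 41 such clones, of which 40 met the requirement on arrays, among 1099 clones that met it and 1218 clones measured in all. Of the 40 clones, 23 were annotated as proteins of the large subunit and 17 as proteins of the small subunit, and together they stand for 34 protein names. Ribosomal protein clones outside the list carry no annotation here and could not be counted, and the annotations were not checked against the sequences of the clones.

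Embryos without algal symbionts were kept at 27.5, 29.0 or 31.5°C, and the study compared the warmer temperatures with 27.5°C. They were sampled 48 and 12 h after fertilization. All groups came from the same mixed spawn of several colonies, and all were fertilized at a temperature between 29.0 and 31.5°C before they were moved to the treatment. Embryos of several containers were combined into 1 RNA isolation for each temperature and time point, and each isolation was hybridized on 3 technical arrays, which gives 6 RNA samples on 18 arrays. On every array Cy5-labelled embryo material was set against a Cy3-labelled reference pool, which per the labels held embryos of all 3 temperatures at several ages. A measured value is thus the log2 ratio of a condition over the reference. The titles and characteristics of the samples give 27.5, 29.0 and 31.5°C, whereas their source names give 28, 30 and 32°C, and the temperatures of the titles are used. Developmental stage cannot be told apart from time point. In whole embryos, fewer cells of a type and less RNA per cell cannot be told apart either.

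Ribosomes translate messenger RNA into protein and consist of a small subunit, which holds the messenger and decodes it, and a large subunit, which joins the amino acids. Each subunit is built on ribosomal RNA from a set of proteins that are mostly present in single copies, and their genes are commonly expressed together. Early animal embryos live on ribosomes stored in the egg and build new ones as development proceeds, and many organisms reduce the messengers of ribosomal proteins under heat and other stresses. Some ribosomal proteins have relatives in bacteria, while others occur without a bacterial counterpart.

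The clones were chosen by their differences from 27.5°C on these same arrays, so all temperature differences below describe the chosen clones and carry no test. A clone was called higher or lower between temperatures if the 95% intervals of its means did not overlap, with 1 residual spread per clone over the 18 arrays. These intervals hold hybridization error and no difference between cultures. The median residual SD was 0.18 for the ribosomal clones and 0.20 for all tested clones. Of the 40 clones, 39 had a value on every array; S5 (CAON1341) lacked 1 of the 3 arrays at 27.5°C after 12 h. Over all tested clones, arrays of different time points correlated negatively (r between -0.59 and -0.049), and the direction of each ratio is taken from the dyes that the methods state. The arrays had 1616 to 3365 usable spots of 4320. Of the 3 arrays of 29.0°C after 48 h, replicate 1 stood apart, with correlations over the ribosomal clones of 0.19 and 0.38 with replicates 2 and 3, which correlated at 0.89 with each other. Replicates 1 and 2 of 27.5°C after 12 h differ from all other arrays in the operator entry of the image analysis. Within 31.5°C after 12 h, replicate 1 correlated over all tested clones at 0.58 and 0.60 with replicates 2 and 3, which correlated at 0.90 with each other, and over the ribosomal clones at 0.75 and 0.65, against 0.84. Replicates 1 and 3 of 27.5°C after 12 h correlated at 0.37 over the ribosomal clones. Several results below are also given without these arrays. Without both arrays of the second operator entry 27.5°C after 12 h rests on 1 array.

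Relative to the reference, the median ribosomal protein clone was lower at each warmer temperature after 48 h, and below the reference at all temperatures after 12 h. Their median log2 ratio after 48 h came to 0.35 at 27.5°C, 0.13 at 29.0°C and -0.31 at 31.5°C. After 12 h it came to -0.65 at 27.5°C, -1.23 at 29.0°C and -0.63 at 31.5°C. The condition of 29.0°C was thus the lowest after 12 h, whereas 31.5°C was the lowest after 48 h. The median of all tested clones lay between -0.0089 and 0.035 in the 6 conditions.

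Large subunit clones ran through medians of 0.37, 0.18 and -0.31 at 27.5, 29.0 and 31.5°C after 48 h and of -0.77, -1.25 and -0.66 after 12 h. Small subunit clones ran through 0.33, 0.09 and -0.31 after 48 h and -0.61, -1.18 and -0.61 after 12 h. Both subunits had their highest median at 27.5°C after 48 h and their lowest at 29.0°C after 12 h. Below the reference stood 3 clones at 27.5°C, 6 at 29.0°C and 39 at 31.5°C after 48 h. After 12 h these counts were 40 at 27.5°C, 38 at 29.0°C and 40 at 31.5°C.

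After 48 h the array medians over the ribosomal clones were 0.32, 0.31 and 0.45 at 27.5°C, -0.089, 0.28 and 0.25 at 29.0°C and -0.40, -0.27 and -0.23 at 31.5°C. After 12 h they were -0.89, -0.60 and -0.61 at 27.5°C, -1.22, -1.16 and -1.20 at 29.0°C and -0.60, -0.64 and -0.65 at 31.5°C. The order of the conditions was thus not set by single arrays: all arrays of 31.5°C after 48 h lay below those of 29.0°C and these below those of 27.5°C, and all arrays of 29.0°C after 12 h lay below those of the other temperatures. The arrays of 27.5 and 31.5°C after 12 h overlapped. Replicate 1 was the low array at 29.0°C after 48 h and at 27.5°C after 12 h.

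**Figure D1:**
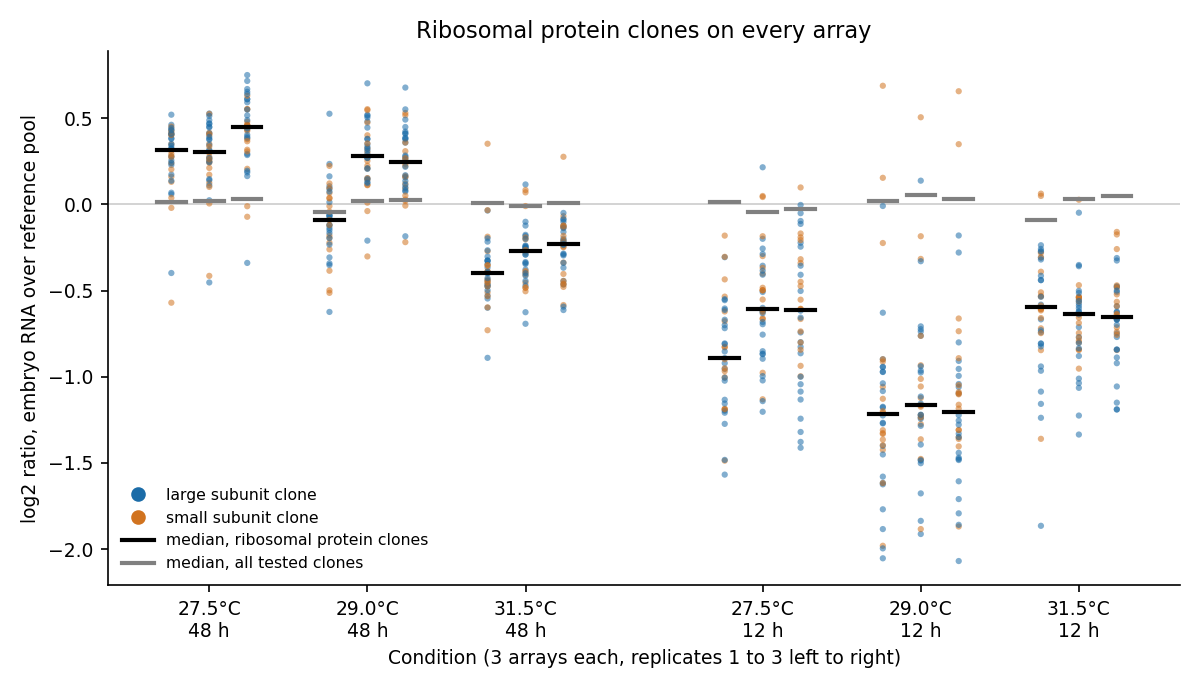
Log2 ratio of embryo RNA over the reference pool (vertical axis) for each ribosomal protein clone on each of the 18 arrays, by temperature and time point (horizontal axis). Points are clones of the large and small subunit, black bars the median of the ribosomal clones on an array and grey bars the median of all tested clones. The black bars lie at -0.40, -0.27 and -0.23 at 31.5°C after 48 h and at -1.22, -1.16 and -1.20 at 29.0°C after 12 h, while the grey bars stay near 0.

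After 48 h, 35 of the 40 ribosomal clones were lower at 31.5°C than at 27.5°C and 1 was higher, with a median log2 difference of -0.70, or 0.615 times the level at 27.5°C. Of all tested clones, 14.6% were lower and 8.64% higher, with a median difference of -0.0055. Because this contrast was among those that chose the clones, nothing is read from that gap. Of the large subunit clones, 20 of 23 were lower and none higher (median -0.72), and of the small subunit clones 15 of 17 were lower and 1 higher (median -0.67). In 37 of the 40 clones all 3 arrays of 31.5°C lay below all 3 of 27.5°C, a pattern found in 32.9% of all tested clones. Leaving out any 1 array gave 27 to 38 called clones, with 38 reached without the array of 29.0°C that stood apart (37 lower and 1 higher).

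In the large subunit, L3 (AOSC713), a protein next to the peptidyl transferase centre, where peptide bonds are made, had the largest fall of all 40 clones. Its log2 ratios after 48 h were -0.89, -0.69 and -0.59 on the arrays of 31.5°C and 0.17, 0.38 and 0.45 on those of 27.5°C, a difference of -1.06. The arrays of the 2 temperatures did not overlap. L5 (AOSF1256) and L11 (AOSC809), which in yeast and mammals join the large subunit together with the smallest ribosomal RNA, differed by -0.86 and -0.42. L10 (AOSC456), which is added late in the assembly of the large subunit in yeast, differed by -0.86. The proteins L18 (AOSC1063), L28 (AOSF1378), L14 (AOSF1264), L32 (AOSF1424), L27 (AOSF1280), L22 (AOSF841), L7A (CAON914), L37-A (CAON1386), L13a (AOSF1326) and L26 (AOSF1009) were all called lower, between -0.67 and -0.78. The 3 clones not called in the large subunit were L19 (AOSF1352, -0.44), L44 (CAON1209, -0.37) and L23 (CAOO2477, -0.088).

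In the small subunit, S4 (AOSF1416), a protein of the body of the subunit, had the largest fall. Its log2 ratios after 48 h were -0.73, -0.39 and -0.46 at 31.5°C and 0.42, 0.25 and 0.48 at 27.5°C, a difference of -0.91 with no overlap. The head, the movable domain of the small subunit, was represented by S3 (AOSF1167), S19 (AOSF1387), S25 (AOSC944), S17e (AOSF939), S16 (CAON1044) and S10 (CAON566). Of these 6 clones, 5 were lower at 31.5°C, with a median difference of -0.72 for all 6. The body and platform, which make up the rest of the subunit, were represented by S3a (CAON1026), S4, S8 (CAOO2216), S14 (AOSF1155), S15a (AOSF1356) and S24 (AOSC565). All 6 were lower, with a median of -0.72. The other small subunit clones, whose names could follow more than 1 naming system, were S18 (AOSC1015, -0.75), S9 (AOSC506, -0.66), S16 (CAON533, -0.62), S10 (AOSC475, -0.40) and S5 (CAON1341, 0.58).

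Ribosomal protein families can also be grouped by their occurrence in bacteria. Families shared with bacteria had 8 of 9 clones lower, with a median difference of -0.67. Families without a bacterial counterpart had 17 of 20 lower, with a median of -0.72. The difference between these groups of clones was not tested. Just outside the interval criterion stood L19 (AOSF1352), whose difference of -0.44 compares with a required 0.45. Just inside stood S24 (AOSC565, -0.67 against 0.63) and L19 (CAON1322, -0.56 against 0.52).

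After 12 h the lowest condition was 29.0°C. Relative to 27.5°C, 23 of the 40 clones were lower and 2 higher at 29.0°C, with a median difference of -0.53 (0.694 times the level at 27.5°C). Of all tested clones 11.1% were lower and 6.82% higher, and this contrast too chose the clones. The large subunit had 13 of 23 clones lower (median -0.47) and the small subunit 10 of 17 (median -0.56). All 3 arrays of 29.0°C lay below those of 27.5°C in 24 of the 39 clones with all values, against 17% of all such clones.

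The largest fall was that of L35a (AOSF1193), at -0.84, with log2 ratios of -1.88, -1.50 and -1.79 at 29.0°C and -0.85, -0.76 and -1.04 at 27.5°C. S14 (AOSF1155), a platform protein near the exit of the messenger, differed by -0.80, with -1.98, -1.88 and -1.87 at 29.0°C and -1.19, -1.13 and -0.997 at 27.5°C. In both clones the arrays of the 2 temperatures did not overlap. S4 (AOSF1416), the body protein named above, had -1.62, -1.22 and -1.05 at 29.0°C and -0.95, -0.55 and -0.19 at 27.5°C, a difference of -0.73. Its arrays did not overlap, but the call ended when any of 4 arrays was left out (27.5°C replicates 2 and 3, 29.0°C replicates 1 and 2, with differences between -0.77 and -0.54). Without both arrays of the second operator entry S4 was called, at -1.10. The clone called lower with the smallest difference was L15 (AOSF736), at -0.34, and its call ended without replicate 2 of 27.5°C (-0.25), replicate 1 of 29.0°C (-0.31) or both arrays of the second operator entry (-0.19).

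After 12 h the median SD of a ribosomal clone over its arrays was 0.11 at 29.0°C, against 0.26 at 27.5°C. Leaving out replicate 2 of 27.5°C gave 15 called clones, and replicate 1 of 29.0°C 17. Without replicate 1 of 27.5°C there were 31. Without both arrays of the second operator entry, where 27.5°C rests on 1 array, the median difference was -0.58. The called clones were then in part others. L7A (CAON914, -0.43), L22 (AOSF841, -0.25) and S3 (AOSF1167, -0.35) were among those that lost their call. L10 (AOSC456, -0.95), L32 (AOSF1424, -0.96) and L5 (AOSF1256, -0.66) were among those that gained one as lower. With all arrays scaled to the same spread 13 clones were called, all of them lower. The clones that lost their call with this scaling include S4 (-0.58), L15 (AOSF1141, -0.33) and L15 (AOSF736, -0.29).

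Among the clones that went the other way, L23 (CAOO2477) and S5 (CAON1341) were each called higher in 2 contrasts. L23, a large subunit protein at the face toward the small subunit, had log2 ratios after 48 h of -0.40, -0.45 and -0.34 at 27.5°C, -0.62, -0.21 and -0.18 at 29.0°C and -0.43, -0.41 and -0.61 at 31.5°C, and these overlapped. After 12 h it had -0.72, -0.90 and -1.24 at 27.5°C, -0.63, -0.33 and -0.28 at 29.0°C and -0.32, -0.048 and -0.31 at 31.5°C. It was called higher than at 27.5°C in both warmer conditions after 12 h, by 0.54 and 0.73, and no array of 29.0 or 31.5°C overlapped with those of 27.5°C. At 29.0°C the call ended with arrays scaled (0.35). It also ended if replicate 3 of 27.5°C (0.39), or replicate 2 (0.50) or 3 (0.47) of 29.0°C, was left out. Without both arrays of the second operator entry L23 was called in both conditions, at 0.83 and 1.02.

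The clone annotated as S5 had values after 48 h of -0.57, -0.41 and -0.072 at 27.5°C, 0.12, -0.30 and -0.22 at 29.0°C and 0.35, 0.07 and 0.28 at 31.5°C. After 12 h they were -0.18 and -0.21 on 2 arrays of 27.5°C, 0.69, 0.51 and 0.66 at 29.0°C and 0.049, 0.027 and -0.26 at 31.5°C. It was called higher in the same contrasts in which most ribosomal clones were lower: by 0.58 at 31.5°C after 48 h and by 0.81 at 29.0°C after 12 h. The call at 48 h ended without replicate 1 of 27.5°C (0.48), and that at 12 h with arrays scaled (0.54). It was the only one of the 40 clones above the reference at 31.5°C after 48 h.

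In the remaining contrasts with 27.5°C few ribosomal clones were called. At 31.5°C after 12 h, 3 clones were higher and 2 lower, against 7.46% and 9.28% of all tested clones, and the median difference was 0.057. That median was -0.098 without replicate 1 of 27.5°C, 0.0049 without replicate 1 of 31.5°C and -0.13 after the arrays had been given a common spread. Without replicate 1 of 31.5°C, 4 clones were higher and 1 lower. Without both arrays of the second operator entry 4 were higher and none lower (median -0.031), with L35a (CAON1901, 0.55) and S10 (AOSC475, 0.40) among the higher ones in place of L15 (AOSF1141). The higher clones were L23 and a pair annotated as L15, a large subunit protein. L15 (AOSF1141) had -0.41, -0.59 and -0.70 at 31.5°C and -0.89, -1.02 and -0.86 at 27.5°C, a difference of 0.36. L15 (AOSF736) had -0.82, -0.71 and -0.84 at 31.5°C and -1.20, -0.996 and -1.32 at 27.5°C, a difference of 0.38. In neither clone did the arrays of the 2 temperatures overlap. The call of AOSF736 ended without replicate 3 of 27.5°C (0.30) or replicate 2 of 31.5°C (0.34), and that of AOSF1141 without both arrays of the second operator entry (0.30). With arrays scaled, neither was called (0.11 for AOSF1141 and 0.10 for AOSF736).

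The lower clones at 31.5°C after 12 h were L3 and S16 (CAON1044). L3 had -0.73, -0.62 and -0.62 at 31.5°C and -0.31, 0.22 and -0.11 at 27.5°C, a difference of -0.59. S16, a head protein that touches the transfer RNA, had -0.75, -0.64 and -0.66 at 31.5°C and -0.30, -0.50 and -0.47 at 27.5°C, a difference of -0.26. In both clones the arrays of the 2 temperatures were apart, and the call of L3 ended without replicate 2 of 27.5°C (-0.45) or without both arrays of the second operator entry (-0.54). That of S16 ended without replicate 1 of 27.5°C or replicates 1 or 3 of 31.5°C, with differences between -0.27 and -0.20, and also without both arrays of the second operator entry (-0.21).

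At 29.0°C after 48 h, 1 clone was called lower and none higher, against 5.19% and 2.64% of all tested clones. The median difference was -0.17, and -0.051 without the array that stood apart. The difference was negative in 36 of the 40 clones, against 555 of the 1099 tested clones, and this contrast too chose the clones. The called clone was S16 (CAON1044), with 0.067, 0.14 and 0.021 at 29.0°C and 0.29, 0.41 and 0.37 at 27.5°C. Its difference of -0.28 was no longer called without any of 4 arrays (replicates 2 and 3 of 27.5°C, replicates 1 and 3 of 29.0°C), among them the array that stood apart. S16 (CAON1044) was the only clone called lower than at 27.5°C in all 4 contrasts, and L15 (AOSF1141) and L15 (AOSF736) were called in 3.

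Over the 4 contrasts with 27.5°C, 2 ribosomal clones were called in none, 13 in 1, 22 in 2, 2 in 3 and 1 in 4. Of all tested clones, 57.7% were called in none, 24.5% in 1, 13.2% in 2, 3.64% in 3 and 1% in 4. Lower both at 31.5°C after 48 h and at 29.0°C after 12 h were 22 ribosomal clones, against 5.19% of all tested clones. Another 12 were lower only at 31.5°C after 48 h of these contrasts, against 5.37%. These contrasts chose the clones, and nothing is read from the gaps. The contrasts of a time point share the arrays of 27.5°C.

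**Figure D2:**
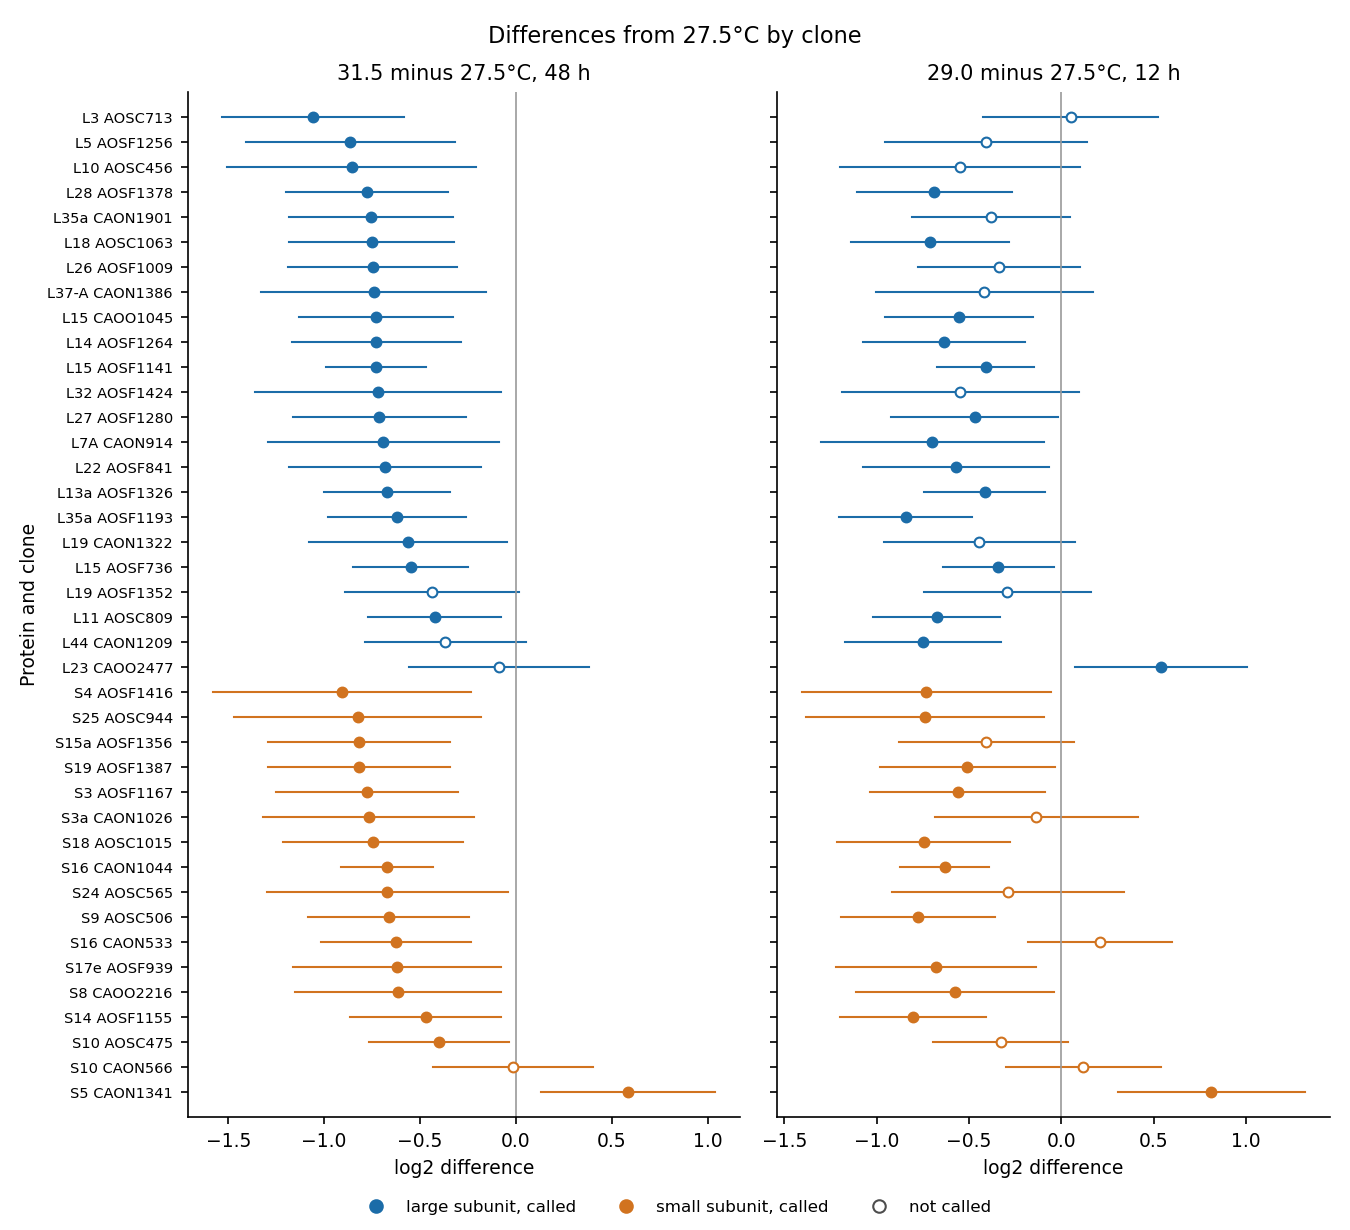
Log2 difference from 27.5°C (horizontal axes) for each of the 40 clones (rows, by protein and clone, large subunit above small subunit), at 31.5°C after 48 h on the left and at 29.0°C after 12 h on the right. Bars span the difference needed for the intervals not to overlap, filled points were called and open points not. On the left 35 clones lie below 0 with filled points, and on the right 23.

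Set against 29.0°C, the clones at 31.5°C were lower after 48 h and higher after 12 h. After 48 h 21 were lower and none higher (median -0.48), against 11% and 6.92% of all tested clones. After 12 h 22 clones were higher and 3 lower (median 0.55), against 10% and 7.01% of all tested clones, and without replicate 1 of 31.5°C 23 were higher and 2 lower (median 0.51). These contrasts use the arrays that chose the clones. Without the array of 29.0°C that stood apart after 48 h, 30 were lower and 1 was higher (median -0.61). The count after 48 h was 11 without replicate 2 and 12 without replicate 3 of 29.0°C, and 12 and 14 without replicates 1 and 2 of 31.5°C. After 12 h 9 clones were called with all arrays scaled to the same spread (median 0.30).

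In 20 of the 40 clones, all arrays of 31.5°C lay below those of 29.0°C after 48 h and all above them after 12 h; of all tested clones with these values, 80 of 1073 (7.46%) did so. L18 (AOSC1063) had -0.33, -0.12 and -0.089 at 31.5°C and 0.091, 0.48 and 0.45 at 29.0°C after 48 h, and -0.94, -1.22 and -1.19 at 31.5°C and -2.05, -1.91 and -2.07 at 29.0°C after 12 h. The largest difference after 12 h was that of L44 (CAON1209), a large subunit protein near the exit site of transfer RNA, at 0.94, with -0.26, -0.36 and -0.33 at 31.5°C and -1.27, -1.22 and -1.28 at 29.0°C. S5 (CAON1341), L3 (AOSC713) and S10 (CAON566) were the 3 clones called lower at 31.5°C than at 29.0°C after 12 h, by -0.68, -0.64 and -0.53. The arrays of S10 (CAON566) overlapped between these temperatures. S16 (CAON533) was also lower, by -0.20, but was not called.

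Means went down at each step of warming after 48 h in 34 of the 40 clones (85%), compared with 25.4% of all tested clones. After 12 h 29.0°C had the lowest of the 3 means in 35 of 40 (87.5%), compared with 34.8% of all tested clones. Both patterns contain the contrasts that chose the clones, and nothing is read from these gaps. By subunit the counts were 19 of 23 large and 15 of 17 small subunit clones after 48 h, and 21 of 23 and 14 of 17 after 12 h.

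A total of 5 protein names were carried by more than 1 clone, 11 clones in all. The L15 clones, S10 (AOSC475) and S16 (CAON533) are annotated without the prefix 40S or 60S, whereas S10 (CAON566) and S16 (CAON1044) carry 40S, so that the pairs of S10 and S16 may be different proteins under 1 name. Clones of 1 name may hold parts of the same transcript or of related genes, and labelled cDNA of 1 can bind the other, so they are not independent measurements. The 3 clones annotated as L15 followed each other over the 6 conditions, with r between 0.96 and 0.99 and largest gaps between the mean ratios of 0.25 to 0.52. For AOSF1141 the study's 2 lists give different names, L15 in the list used here and S27 in the other. The pair of L19 correlated at 0.98 and the pair of L35a at 0.96, although L35a (AOSF1193) was 0.57 below L35a (CAON1901) at 29.0°C after 12 h.

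The pairs of S16 and S10 did not run together as closely. S16 (CAON1044) and S16 (CAON533) correlated at 0.79 and differed most at 29.0°C after 12 h, where CAON1044 had -0.90, -1.17 and -1.10 and CAON533 had -0.22, -0.32 and -0.74. S10 (AOSC475) and S10 (CAON566) had r = -0.098 over the 6 conditions. At 29.0°C after 12 h AOSC475 stood at -1.06, -1.17 and -1.18 and CAON566 at 0.15, -0.18 and 0.35, a gap of 1.24 between the means with no overlap. After 48 h CAON566 had -0.033, 0.084 and -0.12 at 31.5°C and -0.02, 0.0055 and -0.011 at 27.5°C, the smallest difference of all 40 clones (-0.015). AOSC475 had -0.19, -0.0095 and -0.068 at 31.5°C and 0.31, 0.17 and 0.45 at 27.5°C, and was called lower.

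**Figure D3:**
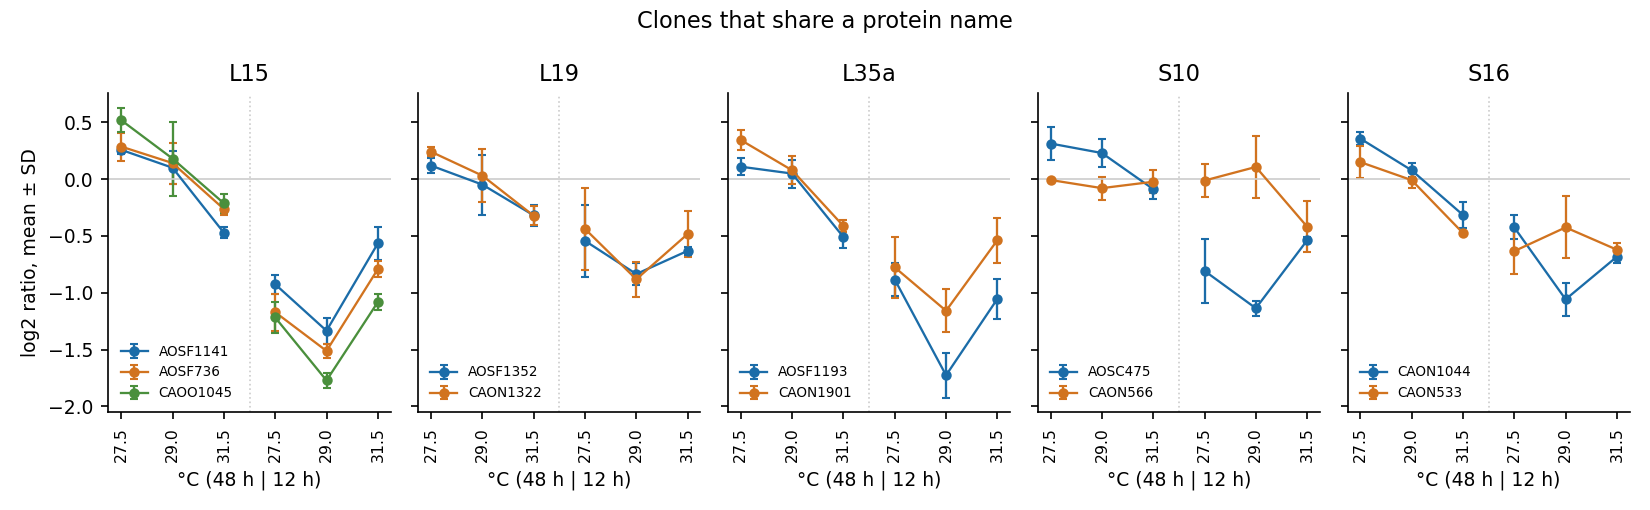
Mean log2 ratio over the reference (vertical axis) of the clones that share a protein name, by temperature after 48 h and after 12 h (horizontal axes), with SD over the technical arrays (n = 3). The clones of L15, L19 and L35a run close together, whereas those of S10 are 1.24 apart at 29.0°C after 12 h.

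Across the 6 conditions, 35 of the 40 clones correlated at r = 0.9 or more with the median profile of the other ribosomal clones. The median r was 0.98, and the points share the reference pool and the arrays. Of all tested clones 125 (11.4%) reached 0.9, and of the unlisted clones 30 of 603. Of the listed clones without a ribosomal annotation 60 of 456 did, among them 5 of the 10 other translation clones. The profile comes from clones chosen by temperature contrasts over these same conditions, and the unlisted clones are those not chosen. Nothing is therefore read from the gaps between these shares. The clones closest to the profile were S8 (CAOO2216, r = 0.999) and S19 (AOSF1387, r = 0.995), proteins of the small subunit. The 5 clones under 0.9 were S16 (CAON533, 0.78), L3 (AOSC713, 0.38), L23 (CAOO2477, 0.19), S10 (CAON566, -0.069) and S5 (CAON1341, -0.76).

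The study's list holds 10 further clones of translation and ribosome assembly within the same requirement on arrays. At 31.5°C after 48 h, 8 of the 10 were lower than at 27.5°C and none higher, with a median difference of -0.54, against 14.6% of all tested clones lower. They were chosen by the same contrasts. At 29.0°C after 12 h 3 of the 10 were lower, with a median difference of -0.30, against 11.1% of all tested clones. RLP24 (AOSF605), which takes part in large subunit assembly in yeast, differed from 27.5°C by -0.58 at 31.5°C after 48 h and by -0.42 at 29.0°C after 12 h. The other clone annotated as RLP24 (CAON1092) was called in neither, with -0.45 and -0.36 against a required 0.48. Elongation factor 1-alpha, which brings aminoacyl transfer RNA to the ribosome, was the annotation of 4 clones. At 31.5°C after 48 h all 4 were lower than at 27.5°C, by -0.51 (AOSC1120), -0.81 (AOSF1463), -0.72 (AOSF1493) and -1.03 (CAOO902). At 31.5°C after 12 h CAOO902 was lower as well, by -1.09, whereas the other 3 were not called, at 0.045, 0.082 and 0.26. At 29.0°C after 12 h AOSF1463 was called lower, by -0.76, and the other 3 were not called. The log2 ratios of CAOO902 after 12 h were -0.63, -0.72 and -0.78 at 31.5°C and 0.32, 0.29 and 0.53 at 27.5°C.

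The clone that missed the requirement on arrays was L35 (CAON810), a large subunit protein at the exit of the peptide tunnel. After 48 h it had 0.19, 0.24 and 0.34 at 27.5°C, -0.48, 0.29 and 0.13 at 29.0°C and -0.37, -0.18 and -0.32 at 31.5°C. After 12 h it had the single value -0.17 at 27.5°C, -0.62, -0.53 and -0.85 at 29.0°C and -0.68, -0.68 and -0.57 at 31.5°C. Its arrays of 31.5°C lay below those of 27.5°C at both time points.

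The time points were compared over the 6 RNA samples, with temperature as a further factor, since the difference of the time points averaged over the temperatures was not among the contrasts that chose the clones. The residual of this fit is the variation of the time difference between temperatures. That residual contains temperature contrasts that chose the clones, so the SE and p-values are not free of this choice. Ribosomal protein clones were higher at 48 h than at 12 h. With limma and Benjamini-Hochberg adjustment over all 1099 clones, 32 of the 40 clones passed the threshold of 0.05 as higher at 48 h and none as lower. Of all tested clones 20.7% were higher and 17.2% lower. The median difference was 0.88 over the ribosomal clones (1.84-fold) and -0.011 over all tested clones. At an unadjusted p under 0.05 stood 36 of the 40, all of them higher. The fit has 2 residual degrees of freedom per clone and draws its spread from all clones. By ordinary least squares, which does not, 0 of the 40 and 0 of the 1099 clones passed after adjustment, and 3 of the 40 had an unadjusted p under 0.05.

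Of the large subunit clones 21 of 23 rose (median 0.90), and of the small subunit clones 11 of 17 (median 0.86). The largest differences were those of L7A and L18, both large subunit proteins with no counterpart in bacteria. L7A (CAON914) had mean log2 ratios of 0.50 ± 0.061 at 27.5°C, 0.44 ± 0.33 at 29.0°C and -0.19 ± 0.092 at 31.5°C after 48 h. After 12 h it had -1.15 ± 0.27, -1.84 ± 0.16 and -1.46 ± 0.36 at the same temperatures (SD of technical arrays, n = 3 each). Its difference was 1.73 (SE 0.22, adjusted p = 0.00035) by limma over 6 RNA samples. L18 (AOSC1063) had 0.57 ± 0.16, 0.34 ± 0.22 and -0.18 ± 0.13 at 27.5, 29.0 and 31.5°C after 48 h, and -1.30 ± 0.23, -2.01 ± 0.086 and -1.12 ± 0.16 after 12 h. It differed by 1.72 (SE 0.25, adjusted p = 0.00086) by limma. In both clones every temperature at 48 h lay above every temperature at 12 h, as in 31 of the 40 ribosomal clones and in 296 of all 1099.

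Among the clones that rose, the smallest change was that of L19 (CAON1322), at 0.58 (SE 0.20, adjusted p = 0.042) by limma. Rises of 2-fold or more were found in 14 of the 40 ribosomal clones and in 98 of the 1099 tested clones. Among the 14 were S14 (1.35), S24 (1.20), L5 (1.44) and L11 (1.01). The 8 clones that did not pass were S5 (CAON1341), at -0.20, and S10 (CAON566), L23, L3, S16 (CAON533), S3, S18 and S4, at 0.071 to 0.74, with adjusted p between 0.052 and 0.78 by limma.

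Of the 10 other translation clones, 5 rose and 1 fell at 48 h relative to 12 h. CAON1092, annotated as RLP24, rose by 1.22, and the aminoacyl-tRNA synthetase clone AOSF1161, of the enzymes that load transfer RNA, fell by 1.52 on the log2 scale (limma adjusted p = 0.0028 and 0.00027).

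The count over the ribosomal clones depended on the RNA samples, as did that over all tested clones. For the ribosomal clones it was 11 without either sample of 27.5°C and 13 without either sample of 29.0°C. Without either sample of 31.5°C 36 ribosomal clones were higher and 1, S5 (CAON1341), was lower. Of all 1099 tested clones, 115 were higher and 89 lower without either sample of 27.5°C, and 127 and 100 without either of 29.0°C. Without either sample of 31.5°C these were 295 and 306, against 228 and 189 with all samples. Without both arrays of the second operator entry 28 clones passed (median 0.86). By temperature, the median difference of 48 minus 12 h amounted to 1.00 at 27.5°C, 1.37 at 29.0°C and 0.31 at 31.5°C. The difference was positive in 39, 38 and 36 of the 40 clones at these temperatures, against 550, 531 and 586 of the 1099 tested clones. These medians contain the temperature contrasts that chose the clones and carry no test. L10 (AOSC456), for example, differed by 0.87 at 27.5°C, 1.26 at 29.0°C and 0.00053 at 31.5°C, whereas L7A differed by 1.64, 2.29 and 1.27.

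**Figure D4:**
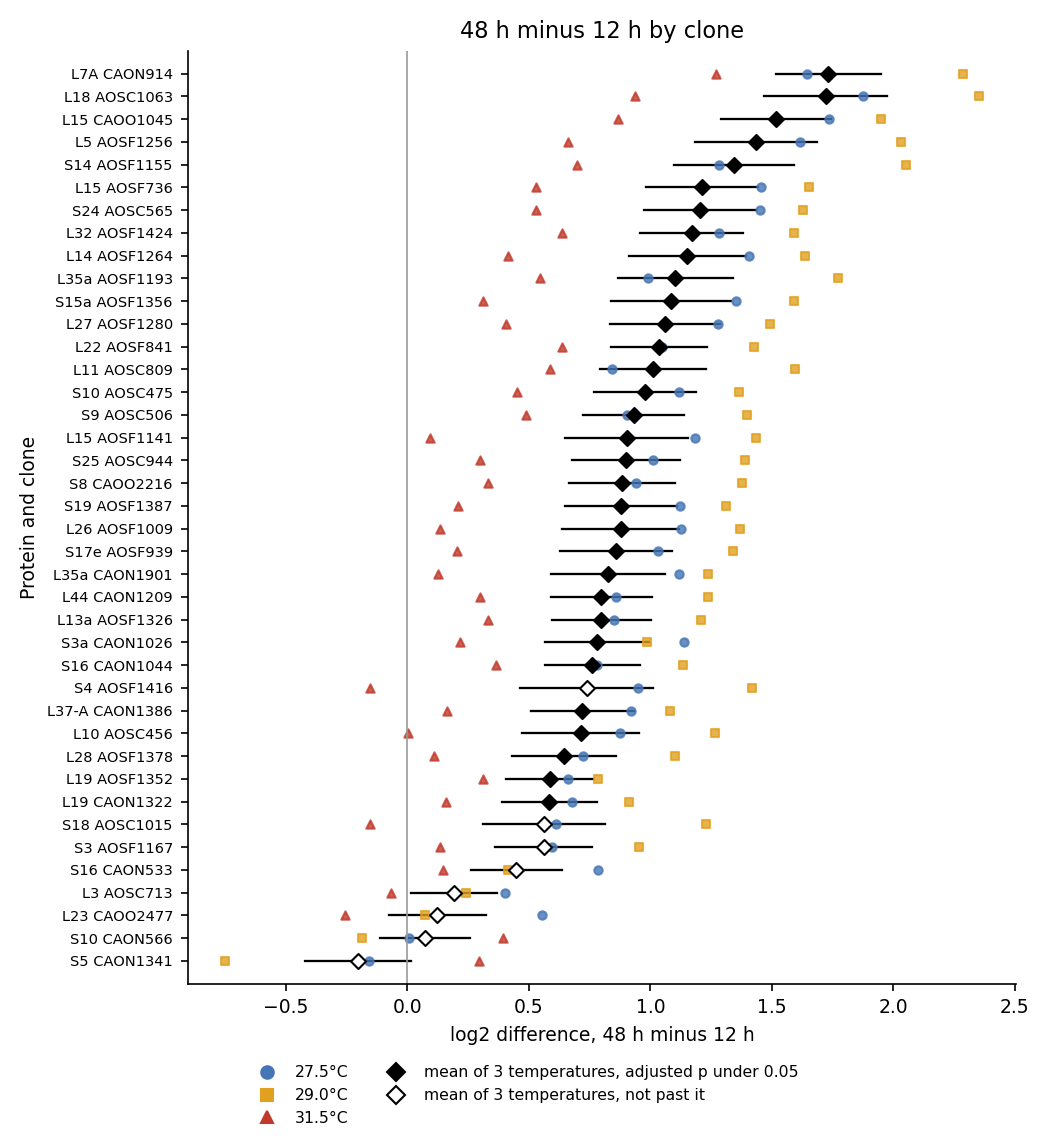
Log2 difference of 48 minus 12 h (horizontal axis) for each ribosomal protein clone (rows), at each temperature (coloured points) and as the mean of the 3 temperatures with its SE from limma (diamonds, filled where the adjusted p was under 0.05). In 32 clones the diamond is filled and to the right of 0, and the triangles of 31.5°C lie left of the circles of 27.5°C in most rows.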

How the data were processed

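Embryo RNA of 6 conditions, 2 time points by 3 temperatures, was measured on 18 two-colour arrays of spotted cDNA, 3 technical arrays per condition. Per the file headers, spot intensities were integrated and background-subtracted in TIGR Spotfinder 2.2.4 before they were deposited. The authors then normalized each array by print-tip LOWESS in TIGR MIDAS and deposited 1 value per clone and array, the log2 ratio of Cy5 over Cy3. How duplicate spots were combined is not given in the sources used here. The intensity files carry no clone identifiers, so that they served only to check the log2 scale and the quality of the arrays, and the number of arrays limits the precision. The methods describe the reference as a mix of all samples, whereas the labels name further ages in it, and no dyes were swapped. No column of sample values was left unused (0).

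The authors' list of differing clones gave the annotations and thereby the ribosomal and translation clones, and divides listed from unlisted clones; its fold changes were not used. Clones with values on at least 2 of 3 arrays per condition were tested. Calls between temperatures used a linear model over all arrays with 12 residual degrees of freedom and the criterion of non-overlapping 95% intervals, in place of the Bayesian estimates of the study. All spread is between technical arrays, so that no p-value is given for temperatures. The time points were compared with limma 3.58.1 in R 4.3.3, on condition means with time point and temperature as factors and 2 residual degrees of freedom. Empirical Bayes p-values were adjusted by Benjamini-Hochberg over all tested clones at 0.05. The remaining steps ran in Python 3.11.15 (pandas 2.3.3, numpy 2.4.6, scipy 1.17.1, with plots by matplotlib 3.10.9), and both procedures were tested on simulated data.

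Named with array values were the 2 largest and 2 smallest falls at 31.5°C after 48 h, all clones called higher, clones called in 3 or more of the 4 contrasts with 27.5°C, the largest changes between time points and clones that share a protein name. Other clones with array values (L35a, S14, S16 (CAON533), L44, L18 against 29.0°C, elongation factor 1-alpha and L35) were chosen after their values were seen. Of these, L35a and S16 (CAON533) also share a protein name with another clone. S16 (CAON1044) falls under the rule of 3 or more contrasts. The clones, lists and tests were chosen with earlier results of these data known. Alternatives were centring, scaling to a common spread, the requirement on arrays, each array or RNA sample left out, a replicate block, limma over arrays, and the mean of clones that share a protein name, which was chosen after seeing the data.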

Additional observations from a re-analysis of the deposited data

Results flagged for a closer look

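The difference between 31.5 and 29.0°C had opposite signs at the 2 time points. Over array medians, 31.5 minus 29.0°C was -0.45 for the ribosomal clones after 48 h and 0.57 after 12 h. For the large subunit it was -0.48 after 48 h and 0.59 after 12 h, and for the small subunit -0.42 and 0.53. For each of these groups of clones, every array median of 31.5°C lay below every one of 29.0°C after 48 h and above after 12 h, which is why the contrast is given here. Whether the time points differ in this contrast was not tested.

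Against 27.5°C, a pair of L15 clones had arrays apart in opposite directions at 31.5°C. L15 (AOSF1141) differed by -0.73 after 48 h and by 0.36 after 12 h, and L15 (AOSF736) by -0.55 after 48 h and by 0.38 after 12 h. This difference between the time points was not tested either. Outlying arrays were not looked for by a formal criterion, since each condition has 3.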

How the results depend on the processing

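The sign of called differences of single clones was checked under the alternatives only in the contrasts with 27.5°C, and none changed. Followed were the clones with the 2 largest and 2 smallest falls at 31.5°C after 48 h. The clones called higher and those called in 3 or more contrasts were followed as well. Among the counts and medians recomputed under the alternatives, 345 values were near the reported ones and 28 were not. Near meant counts within a factor of 1.5 and medians within 1 SD of the array medians. For 48 against 12 h it was 1 SD of the medians by temperature. A temperature median cannot change if the array left out belongs to neither compared condition, and such medians are among the 345. Among the values of the single clones followed, 409 kept their call and 39 lost it. With arrays scaled to a common spread, the called clones numbered 13 in place of 25 at 29.0 against 27.5°C after 12 h, 2 in place of 1 at 29.0 against 27.5°C after 48 h and 9 in place of 25 at 31.5 against 29.0°C after 12 h, where the median was 0.30. The median of 31.5 against 27.5°C after 12 h was -0.13 with this scaling, against 0.057 as reported, so that its sign turned, as it did without replicate 1 of 27.5°C (-0.098) and without the second operator entry (-0.031). In that contrast 1 clone was called if the spread came from the 2 compared conditions, and 3 with 1 value per protein, in place of 5. At 29.0 against 27.5°C after 48 h, 2 were called without the second operator entry and 2 with the replicate block, and 0 with 1 value per protein, by limma over arrays and by limma over arrays with the replicate block. By ordinary least squares 0 clones passed for 48 against 12 h, in place of 32. The cause of these changes was not tested.

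Leaving out 1 array at a time gave 15 to 31 called clones at 29.0 against 27.5°C after 12 h (median -0.61 to -0.44) and 4 to 6 at 31.5 against 27.5°C after 12 h (-0.098 to 0.13). After 48 h it gave 0 to 3 at 29.0 against 27.5°C (-0.25 to -0.051) and 27 to 38 at 31.5 against 27.5°C (-0.73 to -0.66). For 31.5 against 29.0°C it gave 11 to 31 after 48 h (-0.61 to -0.39) and 23 to 28 after 12 h (0.51 to 0.58). The test of 48 against 12 h passed 29 to 34 clones without 1 array and 11 to 37 without 1 RNA sample (median 0.64 to 1.18). Replicate numbers did not pair the arrays: residuals of the same number had a median r of 0.015 (-0.18 to 0.27), and 7 of 18 arrays correlated best with their own number. The fit of 48 against 12 h with the replicate block also takes the 18 technical arrays as samples in place of the 6 RNA samples: 36 ribosomal clones passed, and over all clones 363 higher and 340 lower, against 228 and 189.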

Other observations

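Clone names start with either of 2 prefixes, whose meaning the labels do not give. Of the 27 ribosomal clones named AOS, 1 correlated below 0.9 with the median profile over the 6 conditions, L3 (AOSC713), against 4 of the 13 named CAO.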
